A study of Mus musculus with 8 samples.

Results

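The Krüppel-like factors Klf2, Klf3, Klf4, Klf6, Klf7, Klf10, Klf12 and Klf13 were followed in RNA-seq libraries of regulatory T (Treg) cells that differ in the level of the transcriptional repressor Bach2. The genes were taken by symbol through their Ensembl identifiers, and all 8 were among the 36811 gene models of the deposited table. Treg cells came from spleens of C57BL/6 mice aged 12 to 13 weeks with the genotype Foxp3EGFP-DTR Bach2tdRFP/+, so every library of both groups carried a green Foxp3 reporter joined to the diphtheria toxin receptor and a red reporter on 1 Bach2 allele. The labels name no agent. CD4 T cells that were positive for the Foxp3 reporter were sorted by Bach2 reporter into a HI and a LO population, with 4 libraries each, labelled F1 and F2 (female) and M1 and M2 (male). The labels do not say whether the libraries came from separate animals, nor whether a HI and a LO library of the same label came from the same animal, so every p-value here rests on a spread between libraries that may be technical. The sort can be checked on Bach2 itself, which ranged over 8.62 to 20.7 FPKM among HI libraries and 0.447 to 0.894 among LO libraries. Foxp3 ranged over 13.3 to 15.2 and 10.5 to 19.8. FPKM are fragments per kilobase of transcript scaled by library size, so levels of different genes can be compared within a library. Summed over all gene models, FPKM still differed between libraries, from 1.49e+06 in LO M2 to 2.14e+06 in HI M1.

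Krüppel-like factors are transcription factors that bind GC-rich sites and CACCC boxes through zinc fingers at their C-terminal end. The fingers are much alike across the family, while the rest of the protein sets the partners: Klf3, Klf8 and Klf12 recruit the co-repressor CtBP, Klf9, Klf10, Klf11, Klf13 and Klf16 the co-repressor Sin3A, and Klf1, Klf2, Klf4, Klf5, Klf6 and Klf7 act mostly as activators. In T cells the family is best known through Klf2, which keeps naive cells quiescent and circulating through lymphoid organs by driving the sphingosine phosphate receptor S1pr1.

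Of the 8 genes, Klf7 fell in LO cells, 3.89-fold, and Klf10 rose, 2.37-fold. Klf2, Klf3, Klf6 and Klf13, which were expressed at comparable or higher levels, did not pass the test, and their HI and LO libraries overlapped. Klf4 and Klf12, each listed at 0 in 4 libraries, were too low in too many libraries to be tested. A gene was tested if it reached 1 FPKM in at least 4 of the 8 libraries, which 6 of the 8 genes and 11260 gene models did. Values were compared as log2(FPKM + 1) with limma, with p-values adjusted over all tested genes. Of the 6 tested genes 2 passed at an adjusted p below 0.05, 1 in each direction, against 8.29% of all tested genes (4.65% higher and 3.64% lower in LO cells). The median log2 difference of the 6, LO minus HI, was -0.19, and that of all tested genes was -0.03.

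**Figure D1:**
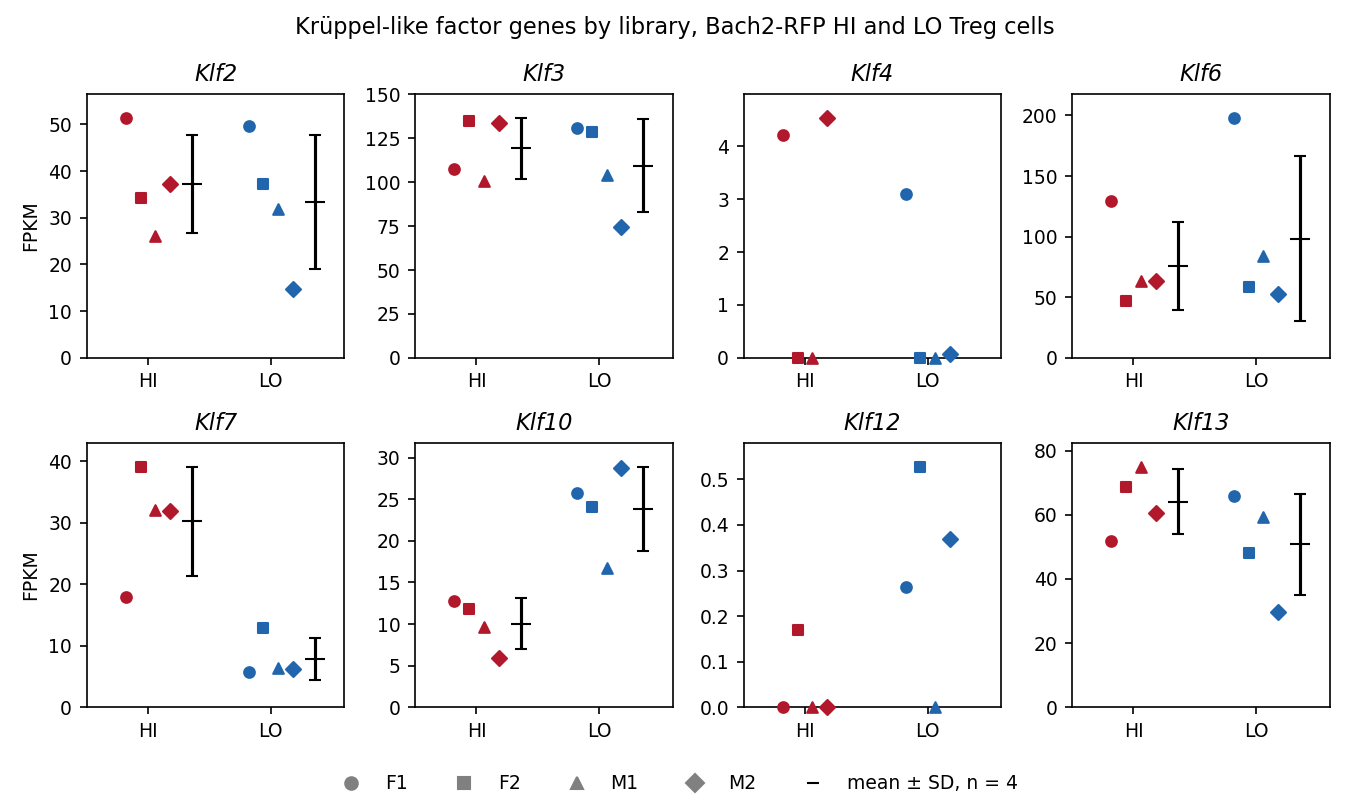
FPKM (y axis, linear and starting at 0) of the 8 genes in each HI and LO library, with 1 marker shape per library label. Bars give mean ± SD (n = 4) and are left out for Klf4 and Klf12, which are listed at 0 in some libraries. In Klf7 and Klf10 the HI and LO points do not overlap, and in Klf6 the F1 library is the highest of both groups.

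Among the activators, Klf7 (ENSMUSG00000025959, chromosome 1), which is known from neuron development and from lymphoid cells, showed the clearest difference. It was at 17.9 FPKM in HI F1, 39.0 in HI F2, 32.0 in HI M1 and 32.0 in HI M2. In LO cells it was at 5.70 in F1, 12.9 in F2, 6.36 in M1 and 6.15 in M2. Every LO library lay below every HI library, and HI F1 and LO F2 were the values nearest to the other group. The HI mean was 30.2 ± 8.87 and the LO mean 7.77 ± 3.41 (SD, n = 4 each). On the log2 scale Klf7 differed by -1.85 (SE 0.33; limma, adjusted p = 0.0072). Of all tested genes, 15.1% had groups that did not overlap, 7.18% with LO below and 7.9% with LO above. The fall was seen within each label, between -1.49 in F1 and -2.21 in M2. It passed when any single library was left out (limma, adjusted p from 0.00613 to 0.0269). When both the shallowest and the deepest library were left out, the difference was -1.73 and did not pass (limma, adjusted p = 0.0574).

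The upstream sequence of Klf7 is shown with those of Klf2 and Klf6, activators that did not pass, so that the start region of the called gene can be set beside 2 uncalled relatives. Each line gives the 250 bases before the annotated start, 5′ to 3′ on the gene's strand, from RefSeq on build GRCm38.p6. This is not the build of the expression table, and the positions serve only to place these sequences. Klf7 is at chr1:64121390-64121639 on the minus strand, Klf2 at chr8:72318812-72319061 on the plus strand and Klf6 at chr13:5861239-5861488 on the plus strand. Capitals mark the CACCC box and the GC box GGGCGG, each on either strand, which are the kinds of site that the family itself binds.
Klf7: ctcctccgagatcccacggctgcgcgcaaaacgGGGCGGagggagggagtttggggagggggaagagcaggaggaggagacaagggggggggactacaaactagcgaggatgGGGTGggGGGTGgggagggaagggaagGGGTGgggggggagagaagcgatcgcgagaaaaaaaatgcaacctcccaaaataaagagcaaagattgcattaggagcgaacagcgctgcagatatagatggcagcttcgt
Klf2: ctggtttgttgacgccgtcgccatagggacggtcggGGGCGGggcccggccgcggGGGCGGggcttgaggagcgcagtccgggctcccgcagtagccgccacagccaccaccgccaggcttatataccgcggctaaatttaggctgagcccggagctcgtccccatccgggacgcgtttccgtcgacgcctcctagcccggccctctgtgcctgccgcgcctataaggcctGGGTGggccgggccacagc
Klf6: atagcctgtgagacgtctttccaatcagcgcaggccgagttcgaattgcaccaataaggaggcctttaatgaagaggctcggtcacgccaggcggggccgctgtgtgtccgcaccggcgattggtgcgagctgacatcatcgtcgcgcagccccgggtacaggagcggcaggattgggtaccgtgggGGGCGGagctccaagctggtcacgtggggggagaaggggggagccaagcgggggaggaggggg
The window of Klf7 held 3 CACCC boxes, between 111 and 138 bases before the start, and 1 GC box. Klf2 had 1 CACCC box, 19 bases before the start, and 2 GC boxes, and Klf6 had 0 CACCC boxes and 1 GC box. Such short words are common: 52.0% of the 32851 RefSeq windows of this length held a CACCC box and 32.7% a GC box. A match to the MEF2 motif, searched on both strands, lay in the Klf2 window 118 bases before the start and in neither of the others, and 2.92% of all windows held one. CCAAT occurred 4 times in the Klf6 window, and 33.8% of all windows had at least 1 match on either strand. The share of windows with several matches to 1 word is not given here, so the counts cannot be ranked. The word TGACTCA, which Bach and AP-1 proteins bind, was in none of the 3 windows on either strand and in 4.46% of all windows. No overlap was found between the marked words in these windows. RefSeq windows were found for 7 of the 8 genes, all except Klf10.

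Klf2 (ENSMUSG00000055148, chromosome 8) was at 51.5, 34.2, 26.2 and 37.2 FPKM in HI F1, F2, M1 and M2. It was at 49.6, 37.2, 31.9 and 14.8 in LO F1, F2, M1 and M2. The groups overlapped over most of their range, and LO M2 was the lowest of the 8 libraries. The HI mean was 37.3 ± 10.5 and the LO mean 33.4 ± 14.4 (SD, n = 4 each). The log2 difference of -0.23 did not pass (limma, adjusted p = 0.774), and its 95% interval ran from -1.03 to 0.56. Its sign turned without LO M2 (0.10). LO M2 was the deepest library, at 5.27 times the depth of HI F1 where the other libraries were at 0.636 to 1.27, as read from the steps between low FPKM values. The value of LO M2 is the least firm, since 8.98% of its low values lay at the most frequent ratio, against 23.8% to 31.1% in the 6 other libraries compared with HI F1.

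Klf6 (ENSMUSG00000000078, chromosome 13), an activator that is induced rapidly by stimulation in many cells, had the largest standard error of the LO minus HI difference among the 6 tested genes (0.43). It was at 129 FPKM in HI F1 against 47.1, 63.5 and 63.2 in HI F2, M1 and M2. In LO cells F1 was again highest, at 198, against 58.1, 84.1 and 52.4 in F2, M1 and M2. The high values thus went with the label F1 in both groups and not with the Bach2 reporter. The log2 difference between LO and HI was 0.26 (95% interval -0.71 to 1.23; limma, adjusted p = 0.794), and without LO F1 it was -0.15. Klf4 (ENSMUSG00000003032, chromosome 4), a relative of Klf2 with a role in limiting proliferation, was listed at 4.22, 0, 0 and 4.54 FPKM in HI F1, F2, M1 and M2. It was listed at 3.09, 0, 0 and 0.0799 in the LO libraries of the same order, so it was above 1 FPKM in 3 of the 8 libraries.

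Klf3 (ENSMUSG00000029178, chromosome 5), a repressor that binds CtBP and restrains Klf2-like activation at shared sites, was the most highly expressed member by mean in both groups. It was at 108, 135, 101 and 134 FPKM in HI F1, F2, M1 and M2 and at 131, 129, 104 and 74.5 in the LO libraries of the same order. The groups overlapped, with LO M2 again lowest. The means were 119 ± 17.6 and 109 ± 26.2 (SD, n = 4 each) and the log2 difference was -0.14, with a 95% interval of -0.61 to 0.32 (limma, adjusted p = 0.759). Without LO M2 the difference was 0.03. Klf12 (ENSMUSG00000072294, chromosome 14), the other CtBP-binding gene of the set, was listed at 0 in 3 HI libraries and LO M1, at 0.170 in HI F2 and at 0.264, 0.528 and 0.369 in LO F1, F2 and M2.

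Of the Sin3A-binding members, Klf10 rose and Klf13 did not pass. Klf10 (ENSMUSG00000037465, chromosome 15), also called TGF-beta inducible early gene, takes part in the response to TGF-beta and has been linked to Foxp3 induction in Treg cells. It was at 12.8, 11.8, 9.70 and 5.93 FPKM in HI F1, F2, M1 and M2. In LO cells it was at 25.8, 24.1, 16.7 and 28.7 in the same order. Every LO library was above every HI library, HI F1 and LO M1 being the closest. The means were 10.04 ± 3.03 and 23.8 ± 5.10 (SD, n = 4 each), a log2 difference of 1.19 (SE 0.29; limma, adjusted p = 0.0324). Within labels the difference ran from 0.73 in M1 to 2.1 in M2. The call was lost in 10 of 19 alternatives. Among these were the fits without any 1 of HI F2, HI M1, HI M2, LO F1, LO F2 or LO M2 (log2 difference 0.98 to 1.28; limma, adjusted p from 0.0556 to 0.0884). It was also lost with no low-value filter and without both F1 libraries (limma, adjusted p = 0.0555 and 0.0963).

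Klf13 (ENSMUSG00000052040, chromosome 7), first described as an activator of the chemokine gene Ccl5 in late-activated T cells, was at 51.8, 68.8, 75.05 and 60.7 FPKM in HI F1, F2, M1 and M2. It was at 65.9, 48.2, 59.3 and 29.7 in the LO libraries of the same order. The ranges overlapped and LO M2 was lowest once more. The log2 difference was -0.38 with a 95% interval of -0.95 to 0.19 (limma, adjusted p = 0.456). Ccl5 itself rose from 107 ± 35.9 to 757 ± 205 FPKM (SD, n = 4 each; limma, adjusted p = 0.000326), while Klf13 did not pass.

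**Figure D2:**
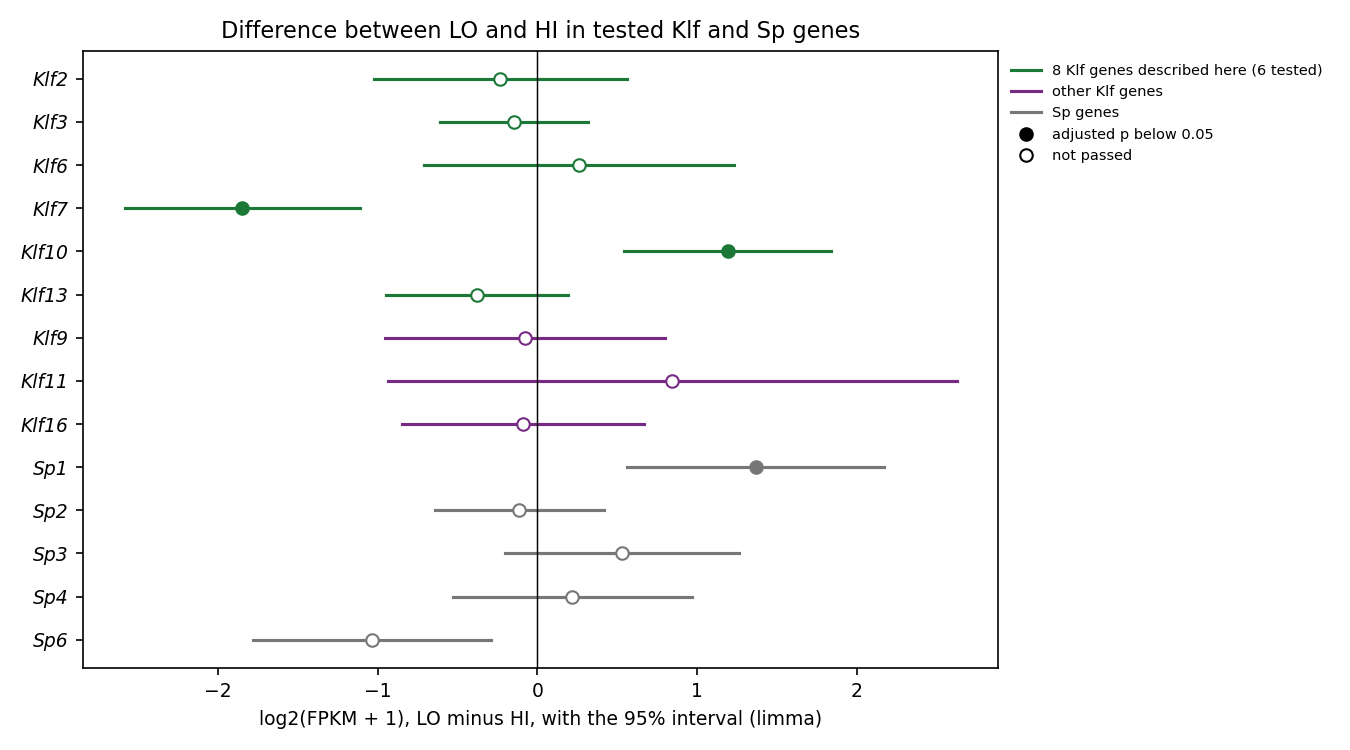
Difference between LO and HI on the log2(FPKM + 1) scale (x axis) with its 95% interval from limma, for the 6 tested genes of the set, 3 other Klf genes and 5 Sp genes. Filled points passed at an adjusted p below 0.05. Klf7 (-1.85), Klf10 (1.19) and Sp1 (1.37) are filled, and the intervals of the uncalled genes cover 0 except for Sp6.

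In the order of levels, Klf3, Klf6, Klf13 and Klf2 led in that order by mean FPKM in both groups. The other 2 tested genes changed places, with Klf7 above Klf10 in HI cells and Klf10 above Klf7 in LO cells, in 4 of 4 libraries each. The ratio of Klf7 to Klf10, which does not depend on how libraries are scaled, was 1.40, 3.31, 3.30 and 5.39 in HI F1, F2, M1 and M2. In LO cells it was 0.221, 0.534, 0.380 and 0.214. Klf7 and Klf10 are the 2 called genes, with opposite signs. A ratio that parts the groups thus follows from their calls and is no separate support. Neighbours in the order did not all differ beyond their spread. In HI cells the ranges of Klf3 and Klf6, of Klf6 and Klf13 and of Klf2 and Klf7 overlapped, and in LO cells those of Klf3 and Klf6, Klf6 and Klf13, Klf13 and Klf2, and Klf2 and Klf10. Summed over the 8 genes, FPKM averaged 339 ± 28.0 over HI and 325 ± 113 over LO libraries (SD, n = 4 each), from 207 in LO M2 to 479 in LO F1. Klf3 made up 35.3 ± 5.53% of that sum over HI and 34.8 ± 5.87% over LO libraries (SD, n = 4 each). Klf7 made up 4.76% to 11.6% in HI and 1.19% to 4.16% in LO libraries, and Klf10 1.76% to 3.51% and 5.38% to 13.9%.

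**Figure D3:**
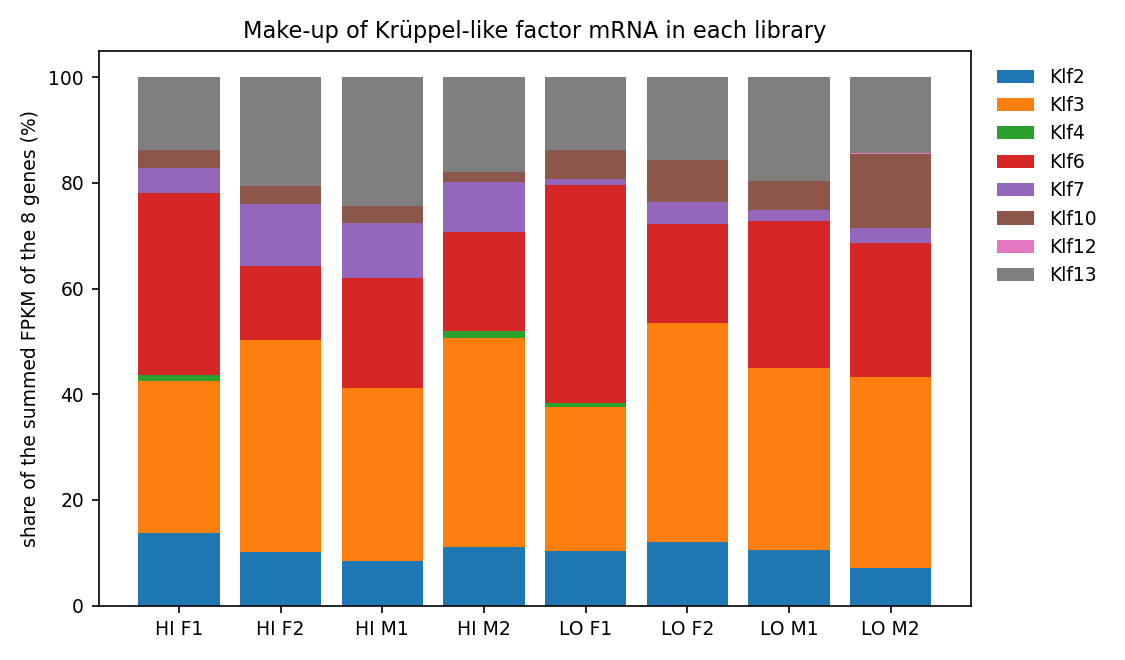
Share (%) of each gene in the summed FPKM of the 8 genes (y axis) in each library (x axis). The band of Klf7 is wider in every HI library and the band of Klf10 in every LO library, and Klf6 takes its largest share in the F1 library of each group.

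The label pattern of Klf6 was set beside immediate early genes, a list chosen after the data were seen. Fos was at 1518, 46.0, 442 and 23.6 FPKM in HI F1, F2, M1 and M2 and at 1454, 28.9, 441 and 20.8 in the LO libraries. Its level followed the label in both groups, from F1 down to M1, F2 and M2. Of the 9 immediate early genes tested, 7 were highest in F1 of both groups (Fos, Fosb, Jun, Junb, Ier2, Dusp1 and Nr4a1). The others, Egr1 and Egr2, were highest in F1 of the HI group only. Among LO libraries Egr1 was highest in M2, at 16.1 FPKM, and Egr2 was lowest in F1, at 8.88. Libraries numbered 1 (F1 and M1) were compared with those numbered 2 over all genes, with the Bach2 group in the model. Klf6 was at a mean of 119 FPKM in number 1 and 55.2 in number 2 libraries, a log2 difference of 0.97 (SE 0.32; limma, adjusted p = 0.379). None of the 6 tested Klf genes passed, with 1 at an unadjusted p below 0.05, and 1 gene of all, Fos, passed (0.00888%; limma, adjusted p = 0.0438). Within number 1 the LO minus HI difference was 0.51 for Klf6, -1.83 for Klf7 and 0.84 for Klf10. Within number 2 it was 0.02, -1.87 and 1.54. What the numbers stand for is not given in the labels, and the part of sampling or handling in the Klf6 pattern was not tested.

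**Figure D4:**
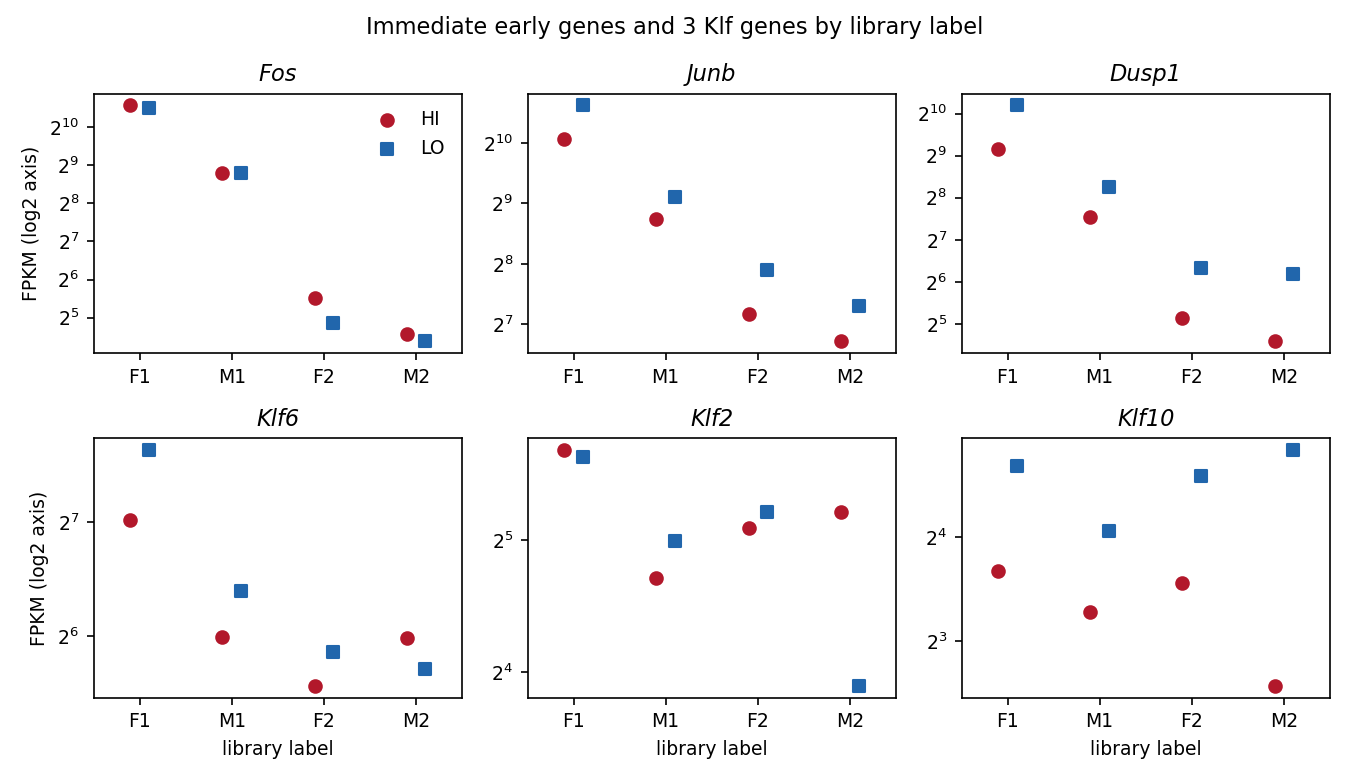
FPKM on a log2 axis (y axis) of 3 immediate early genes and of Klf6, Klf2 and Klf10 by library label (x axis), with circles for HI and squares for LO libraries. Fos, Junb, Dusp1 and Klf6 are highest in F1 of both groups, while Klf10 is higher in LO than in HI within each of the 4 labels.

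Female and male libraries were compared with the Bach2 group in the model. None of the 6 tested Klf genes passed, where 0.0444% of all tested genes did, and 1 of the 6 had an unadjusted p below 0.05. This was Klf2, at a mean of 43.1 FPKM in female and 27.5 in male libraries (log2 difference 0.68, SE 0.30; limma, adjusted p = 0.998). For the difference of the LO minus HI change between the sexes, 0 of the 6 passed and 0 had an unadjusted p below 0.05 (limma), against 0.0178% called of all tested genes. With 2 libraries per sex and group these differences were measured loosely, with 95% intervals (female minus male) of -0.95 to 2.30 for Klf7 and -1.77 to 0.87 for Klf10, so the 0 calls do not show that the sexes were alike.

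Of the 9 other Klf genes, 3 were tested (Klf9, Klf11 and Klf16), 0 passed with limma, and Klf5, Klf14 and Klf17 were listed at 0 in at least 7 libraries. Klf11, the nearest relative of Klf10, was at 26.6, 0.994, 4.01 and 3.12 FPKM in HI F1, F2, M1 and M2 and at 16.2, 21.9, 5.38 and 3.72 in the LO libraries. Its groups overlapped, and its interval of -0.94 to 2.63 (limma, adjusted p = 0.614) was the widest of the Klf genes. Of 9 genes of the related Sp family, 5 were tested, 1 rose and 0 fell, with a median of 0.22, where 4.65% of all tested genes rose and 3.64% fell. The riser was Sp1, a ubiquitous activator at GC boxes, between 5.77 and 9.51 FPKM among HI and between 9.99 and 29.4 among LO libraries (log2 difference 1.37, SE 0.36; limma, adjusted p = 0.0453). That call was lost in 12 of 19 alternatives, among them 7 of the 8 fits that left out 1 library, all except LO M2 (log2 difference 1.19 to 1.49; limma, adjusted p from 0.0577 to 0.13).

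Genes linked to Klf2 in T cells moved in different directions while Klf2 itself did not pass. S1pr1, the egress receptor that Klf2 drives, spanned 62.4 to 113 FPKM in HI cells and 58.1 to 84.9 in LO cells, with a log2 difference of -0.13 (95% interval -0.61 to 0.35; limma, adjusted p = 0.795). Ccr7, the lymph node homing receptor, fell 11.2-fold, and Itgb7, an integrin chain for gut homing, rose 1.56-fold to 1242 ± 61.9 (SD, n = 4; limma, adjusted p = 0.00964). The Itgb7 call was not kept without a variance trend or without both F1 libraries (limma, adjusted p = 0.062 and 0.083). Cxcr3 and Ccr3, chemokine receptors that increase on T cells lacking Klf2, rose. Ccr3 went from 1.52 ± 0.556 to 10.9 ± 4.10 FPKM (SD, n = 4 each; limma, adjusted p = 0.00538).

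**Figure D5:**
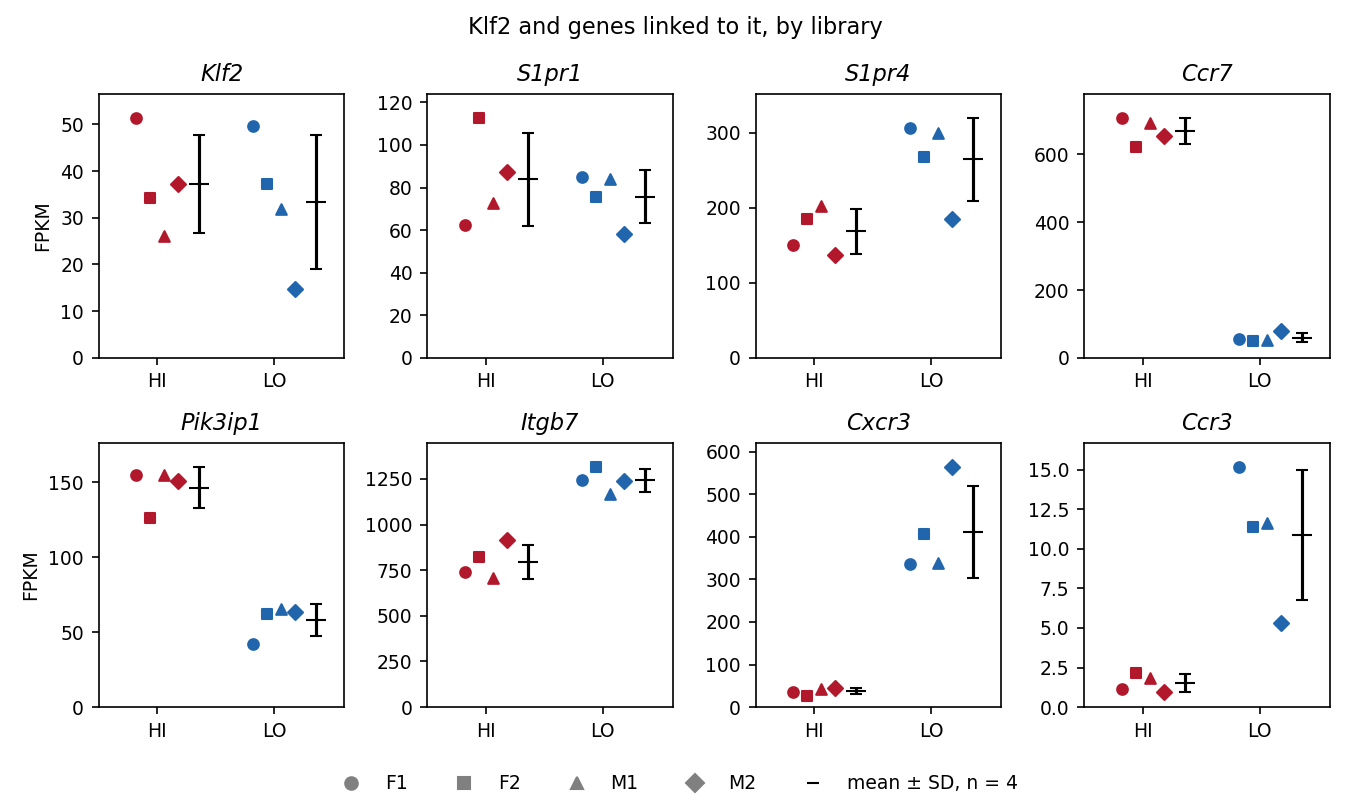
FPKM (y axis, linear and starting at 0) of Klf2 and of 7 genes linked to it in each HI and LO library, with mean ± SD (n = 4). Klf2, S1pr1 and S1pr4 overlap between the groups, Ccr7 and Pik3ip1 are lower in every LO library, and Itgb7, Cxcr3 and Ccr3 are higher in every LO library.

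Among 12 genes upstream of Klf2, all tested, 0 rose and 1 fell, a share close to the 8.29% called over all tested genes, with a median of -0.28. The member that fell was Pik3ip1, an inhibitor of PI3 kinase, from 147 ± 13.9 to 58.2 ± 10.8 FPKM (SD, n = 4 each; log2 difference -1.33, limma, adjusted p = 0.00172). Foxo1, which activates Klf2, spanned 23.8 to 36.8 FPKM among HI libraries and 13.1 to 18.8 among LO libraries and did not pass (log2 difference -0.66; limma, adjusted p = 0.12). With quantile normalization 2 upstream genes passed. Of 14 cofactors and ubiquitin ligases of the family, CtBP, Sin3 and histone deacetylase genes included, 13 were tested and 0 passed with limma, with a median of -0.19. Of 9 quiescence genes, 0 rose and 2 fell, with a median of -0.05, where 3.64% of all tested genes fell. Foxp1, a factor that holds naive T cells at rest, fell 2.46-fold, and Btg1, an antiproliferative gene, fell 1.70-fold. The fall of Btg1 (limma, adjusted p = 0.027) was lost in 6 of the 8 fits that left out 1 library (limma, adjusted p from 0.0503 to 0.0693). The 8 TGF-beta pathway genes around Klf10 had 0 calls with limma, 1 without HI M1, and a median of -0.04.

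Tested genes with a mean of at least 5 FPKM were ranked by how closely they followed each Klf gene over the 8 libraries, by the Pearson correlation of log2(FPKM + 1). The libraries share the Bach2 groups, their depth and their labels, so the coefficients are descriptions. Most like Klf2 were Zfp706 (r = 0.94), Ufsp2 (0.90), Rgl2 (0.89) and Mtrr (0.88). All 4 were lowest in LO M2, as Klf2 was. The closest to Klf3 was Pabpc1 (0.90) and the closest to Klf13 was Cfl1 (0.98), a cytoskeletal gene. Klf6 was followed most closely by Ppp1r15a (0.98), a stress-induced phosphatase subunit, which was at 199 and 398 FPKM in HI F1 and LO F1 and at 17.9 to 68.8 in the other libraries. Smyd2, a lysine methyltransferase, was closest to Klf7 (0.997), with 17.7 to 32.4 FPKM among HI and 7.46 to 15.2 among LO libraries. Klf10 was followed by Sec24d (0.98), a coat protein of vesicles leaving the endoplasmic reticulum. Between members the highest coefficient was that of Klf2 with Klf3 (0.78) and the lowest that of Klf7 with Klf10 (-0.83).

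Markers of other spleen cells differed between the groups as well. For comparison, 3.64% of all tested genes were called lower and 4.65% higher in LO cells. The summed FPKM of 7 B cell markers spanned 137 to 239 among HI and 75.4 to 99.9 among LO libraries, with 3 of 6 tested markers lower, and Pax5 was listed at 0 in all 4 LO libraries and in HI M1. That of 4 plasmacytoid dendritic cell markers was 235 to 314 and 132 to 242, with 2 of 4 lower. That of 7 myeloid markers was 158 to 361 and 104 to 244, with 1 of 6 lower. The highest by mean were Cd79b among B cell, Bst2 among plasmacytoid dendritic cell and Lyz2 among myeloid markers. None of these passed. Called lower were, among others, Cd79a (mean 48.9 in HI and 4.61 FPKM in LO cells) and Siglech (23.7 and 0.541). The myeloid markers S100a8 and Itgam had positive log2 differences (0.22 and 1.25) and did not pass. Plasma cell markers summed to 8.33 to 23.8 in HI and 79.6 to 183 in LO libraries, with 2 of 4 higher (Jchain and Prdm1, the second of which Treg cells also express), while Tnfrsf17 was at 0 in 7 libraries. Of 7 Treg and CD4 T cell markers, 2 rose and 1 fell in LO cells. Ctla4, a checkpoint receptor, rose 2.49-fold and Ikzf2, the transcription factor Helios, 2.17-fold (limma, adjusted p = 0.000642 and 0.0214). Il2ra, the IL-2 receptor alpha chain, fell from 75.6 ± 8.83 to 27.7 ± 5.13 FPKM (SD, n = 4 each; limma, adjusted p = 0.00149). Cd3e did not pass, at 283 to 378 FPKM among HI and 383 to 431 among LO libraries (limma, adjusted p = 0.345), and Cd4 overlapped between the groups. In bulk samples fewer cells of a type and less RNA per cell cannot be told apart, and the part of these other cells in the differences of Klf7 and Klf10 was not tested.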

How the data were processed

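Per the labels' protocols, SmartSeq2 libraries were made from RNA of the sorted cells. The deposited values are FPKM from Cuffnorm, per the file name, 1 column per library. The submitters' processing notes list HISAT2, cutadapt and FastQC with no version, and mm9 and NCBIM37 as builds. The annotation, the scaling between libraries and whether counting used strand are each not given in the sources used here. The series design text describes another, single-cell experiment and was not used.

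Ensembl IDs were matched to symbols in a table of mouse gene names (31840 of 36811 matched), and chromosomes from GENCODE vM21 (build GRCm38). Gene models that reached 1 FPKM in 4 or more libraries were tested as log2(FPKM + 1) in limma 3.58.1 (R 4.3.3) (eBayes with trend; adjustment by Benjamini-Hochberg, threshold 0.05), which understates the change of low genes. Folds are ratios of mean FPKM. Read totals are unknown. Relative depth was read from the most frequent ratio to HI F1 of values below 2 FPKM. The fit was tested on simulated data in which 100 of 11260 genes changed at each log2 size. In the real data 8.29% were called for LO against HI, so recovery there may differ. For LO against HI the fit recovered 18% of simulated log2 changes of 1 and 84% of those of 3. For the interaction it recovered 0% and 20%. A gene that did not pass may therefore still differ.

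The 8 genes and all lists were chosen with earlier results of these data known. All 8 genes were named, as were up to 3 called genes per list with the smallest p, the closest genes by correlation, and Bach2 and Foxp3. Any other list gene that is named was picked with its values in view. In GENCODE 3 models overlap Klf7, 1 of them in the table, and 2 overlap Klf12, both in the table. These 3 in the table were at 0 in every library. The 2 models that overlap Klf3 and the 2 that overlap Klf13 were not analysed here. Alternatives were another pseudocount, filter, scaling or variance setting, sex or label in the model, and libraries left out. Leaving out both F1 libraries, leaving out the shallowest and the deepest library, and the library number as a covariate were chosen after seeing the data. Some genes that the rule takes are not reported here.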

Additional observations from a re-analysis of the deposited data

Results flagged for a closer look

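A library stood apart from the other 3 of its group by Dixon's gap test in 5 of the 40 groups of 4 examined (20 genes in 2 groups), where chance gives about 1 in 20. Klf7 in LO F2 was at 12.9 FPKM, against 5.70 to 6.36 in the other LO libraries, and still below the lowest HI library. Klf4 in LO F1 was at 3.09 FPKM, against 0 to 0.0799. Klf12 in HI F2 was at 0.170 FPKM, against 0 in the other 3. With 0 in the other 3, any value above 0 is flagged, so the rate of 1 in 20 does not hold there. The other LO values of Klf4 are likewise at or near 0. Pik3ip1 stood low in HI F2, at 126 FPKM against 151 to 155, and in LO F1, at 42.1 against 62.4 to 65.2.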

How the results depend on the processing

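The count of 2 called Klf genes fell to 1 with no filter on low values (8 genes tested), with the library label as a replicate block and, chosen after seeing the data, without both F1 libraries, and to 0 without the shallowest and the deepest library. Leaving out single libraries gave 1 to 2. Klf7 kept its call in 18 of 19 alternatives (log2 difference -2.09 to -1.71) and Klf10 in 9 of 19 (0.98 to 1.34; limma, adjusted p from 0.0247 to 0.141). Fewer genes or libraries enter some of these fits, and more genes enter others. With no filter on low values 16165 genes were tested, against 11260 in the main fit. The fits without both F1 libraries and without the shallowest and the deepest library asked for 1 FPKM in 3 libraries. They tested 11365 and 11343 genes, the second with 7 Klf genes. Otherwise the cause was not tested. With the replicate block Klf10 had an adjusted p of 0.0707 (limma) and an unchanged difference of 1.19. In the main fit the labels were not treated as pairs. The deviations of same-labelled HI and LO libraries correlated at 0.01 to 0.11, and those of differently labelled ones at -0.10 to 0.06. These values do not settle whether the libraries were paired. Signs turned for uncalled genes. Without LO M2 the difference turned in Klf2 and Klf3 (0.10 and 0.028; range over single libraries left out -0.46 to 0.10 and -0.24 to 0.028), and without LO F1 in Klf6 (-0.15; range -0.15 to 0.55). Foxp3 turned without HI F2, LO F1 or LO M1 (-0.016, -0.022 and -0.13; range -0.13 to 0.15) and without both F1 libraries (-0.016). For sex, Klf7 turned without HI F2, LO F2 or LO M2 (-0.076, -0.20 and -0.0029; range -0.20 to 0.36) and Klf13 without LO F1 or LO M2 (-0.026 and -0.13; range -0.13 to 0.26). For the interaction, Klf6 turned without HI F2 or LO F1 (-0.33 and -0.49; range -0.49 to 1.26). No Klf gene was called for sex or interaction in any of the 14 alternatives of each. Over all genes the 934 calls of LO against HI became 586 without LO F2 and 523 without both F1 libraries. They rose to 975 with upper quartile scaling and 1032 with the library number as a covariate. The 5 calls for sex became 0 to 5 and the 2 for the interaction 1 to 3. Precision is limited by the 4 libraries per group and by unknown read totals.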
